A study of Mus musculus with 72 samples.

Results

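Transcripts of 9 enzymes of amino acid catabolism were followed in liver and in the suprachiasmatic nucleus (SCN), the hypothalamic clock centre, of mice whose diet lacked methionine and choline (MCD) or was a control diet. The enzymes were chosen by symbol, as Tat, Hpd, Hgd and Fah of tyrosine breakdown, Tdo2 of tryptophan, Hal of histidine, Sds of serine, and Gldc and Amt of the glycine cleavage system. All 9 were among the 22823 genes of the liver table, and 4 of them (Fah, Sds, Gldc and Amt) were among the 15759 genes of the SCN table. The mice were C57BL/6J, 8 to 12 weeks old, with no engineered allele named in the labels, and ate one diet or the other, equal in energy, at will for 11 days. They lived in light and dark for 10 days and in constant darkness on the last, when they were killed at circadian times CT0, CT4, CT8, CT12, CT16 and CT20. That makes 24 groups, by tissue, diet and time, with 3 libraries apiece, which the sample labels give as 2 males and 1 female, although the protocol text speaks of males only. Liver RNA came from the left lobe, and the SCN was cut from stained brain sections by laser.

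The liver is the main site where surplus amino acids are broken down, and several of these enzymes are known to follow feeding, glucagon and glucocorticoid hormones. Tyrosine loses its amino group to TAT, is oxidised by HPD to homogentisate, opened by HGD and, after an isomerase step, split by FAH into fumarate and acetoacetate. TDO2 opens the ring of tryptophan, HAL removes ammonia from histidine, SDS turns serine into pyruvate, and GLDC and AMT act in turn in the mitochondrial complex that splits glycine and hands a carbon unit to folate.

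Levels are given in CPM (counts scaled by library size) after TMM scaling, a method that sets libraries to a common level through the bulk of their genes, and differences as log2 MCD minus control. A call means an adjusted p (Benjamini-Hochberg over all genes tested) below 0.05 in the quasi-likelihood test of edgeR. Liver libraries held 52.6 to 86.7 M counts (median 64.4 M) and SCN libraries 23.3 to 79.8 M (median 57.0 M). The liver libraries fell into 2 kinds by the mitochondrial transcript mt-Nd6, both present on each diet: it lay between 41.57 and 118.9 CPM in 21 libraries (8 control, 13 MCD) and between 414.1 and 924.6 CPM in 15 (10 control, 5 MCD). One control male at CT8 whose column carries no number, called control CT08 a, lay at the level of the MCD libraries for several enzymes, so results are also given without it. Since it was singled out by these same values, a wider diet difference or less overlap without it follows in part from that choice. The labels do not say that each library is a separate mouse, so p-values measure the spread between these libraries. Hepatocyte markers were abundant in liver (their sum ran from 89300 to 129000 CPM on control, on MCD from 64000 to 129000 CPM), and all 8 markers of SCN neurons were listed in the SCN, while 2 of 8 hepatocyte markers were, at a sum of at most 27.3 CPM.

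Per kilobase of exon, the liver levels on the control diet ran from 723 ± 195 CPM per kb for Hpd through 396 ± 160 for Tat, 238 ± 54.0 for Tdo2, 236 ± 34.6 for Fah, 194 ± 21.6 for Hgd, 83.8 ± 38.8 for Sds, 67.05 ± 17.06 for Hal and 36.8 ± 9.92 for Gldc to 17.9 ± 5.30 for Amt (SD, n = 18 each). Each gene's range over the 18 libraries overlapped that of the next gene in this order, so only genes farther apart in it were separated by their ranges. Tyrosine breakdown thus held the highest and second highest levels, and glycine cleavage the lowest and second lowest.

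Over the 6 times, transcripts of Hpd, Hgd, Fah, Sds, Gldc and Amt were lower on MCD, and those of Tat, Tdo2 and Hal did not pass the test. That is 6 of 9 called, all lower, with a median log2 difference of -0.33, where 46.6% of all genes tested were called and 21.2% were called lower, with a median of 0.02 over all genes. The direction depends on the scaling, and MCD libraries had higher TMM factors (mean 1.10 against 0.917). With library totals alone the median of all genes was 0.27, and 87.3% of the genes called were higher on MCD in place of 54.4%. Of the 9 enzymes only Hpd (-0.40), Hgd (-0.27) and Fah (-0.45) were then called lower. Of the 20249 genes tested 60.1% were called under that scaling, and 1540 were called lower.

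**Figure D1:**
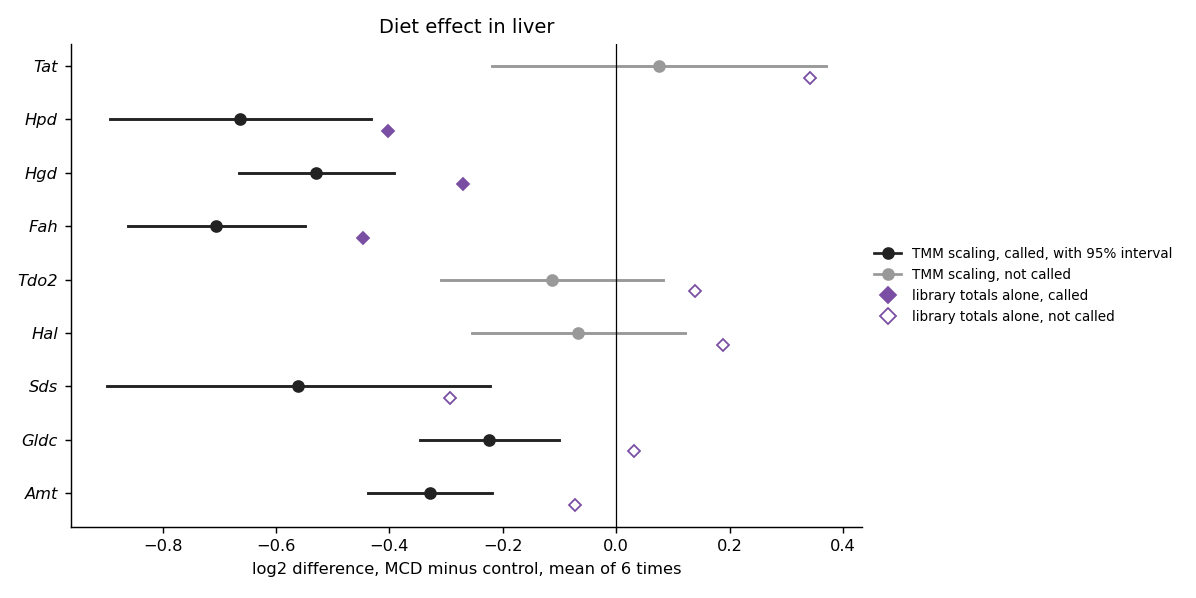
Log2 difference in liver, MCD minus control, as the mean over the 6 times, for each of the 9 enzymes (circles with 95% intervals, TMM scaling; dark where called), and the same value with library totals alone (diamonds, filled where called). Hpd, Hgd and Fah lie left of 0 under both scalings, and Gldc moves from -0.22 to 0.03.

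Hpd, Hgd and Fah, whose enzymes act in tyrosine breakdown after the transaminase, fell together. Fah, the last enzyme, whose gene lies at chr7:84585159-84606722 (minus strand) in GRCm38 (GENCODE M21), as do all gene positions given here, stood at 302.8 to 642.2 CPM on control (median 546 CPM) and at 249.4 to 392.5 CPM on MCD (median 320.4 CPM, n = 18 each). Of the 18 control libraries 17 lay above the highest MCD library, and the exception was control CT08 a, the lowest control value. Fah fell by 0.71 on the log2 scale (SE 0.08, edgeR adjusted p = 3.63e-08), a change of -38.7%, and was lower at 6 of 6 times. Without control CT08 a, set apart for such low values, the difference was -0.76 (edgeR adjusted p = 6.95e-11). No MCD library then reached the lowest control, which follows from leaving out the only control that overlapped.

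Hgd, at chr16:37580153-37632020 (plus strand), opens the ring of homogentisate. Its levels were 359.9 to 604.5 CPM on control (median 508.1 CPM) and 278.7 to 456.7 CPM on MCD (median 345.9 CPM). Again 17 control libraries lay above all 18 MCD libraries, and control CT08 a was the one that did not. Hgd fell by 0.53 (SE 0.07, edgeR adjusted p = 3.69e-07), a change of -30.7%, and by 0.57 without that library (adjusted p = 1.74e-08).

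Hpd, at chr5:123171807-123182727 (minus strand), makes homogentisate. It ran from 675 to 2346 CPM on control (median 1494 CPM) and from 678 to 1379 CPM on MCD (median 960.7 CPM). The groups overlapped in part, with 11 control libraries above the highest MCD library. Hpd fell by 0.66 (SE 0.11, edgeR adjusted p = 2.47e-05), a change of -36.8%. All 3 genes were called within the libraries low in mt-Nd6 (Hpd -0.67, Hgd -0.54, Fah -0.71) and within those high in it (-0.68, -0.50 and -0.71).

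A window is shown for each of these 3 genes because their transcripts fell together. They are the 250 bases before the RefSeq start (build GRCm38.p6, to which the coordinates belong; the submitters' processing notes name GRCm39), 5' to 3' on the gene's strand, at chr5:123182724-123182973 (minus strand) for Hpd, chr16:37579903-37580152 (plus strand) for Hgd and chr7:84605943-84606192 (minus strand) for Fah. The Fah window lies wholly inside the gene as GENCODE M21 places it, since the RefSeq start is downstream of the GENCODE one, so the stretch before the GENCODE start was not searched. Capitals mark the letters CCAAT, TTGCNNAA (a C/EBP site) and AGGTCA (bound by nuclear receptors) on either strand.
Hpd: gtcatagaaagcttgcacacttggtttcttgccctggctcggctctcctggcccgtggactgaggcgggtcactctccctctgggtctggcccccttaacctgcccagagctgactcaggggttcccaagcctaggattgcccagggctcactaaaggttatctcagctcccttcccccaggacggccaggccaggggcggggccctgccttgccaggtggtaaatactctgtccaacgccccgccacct
Hgd: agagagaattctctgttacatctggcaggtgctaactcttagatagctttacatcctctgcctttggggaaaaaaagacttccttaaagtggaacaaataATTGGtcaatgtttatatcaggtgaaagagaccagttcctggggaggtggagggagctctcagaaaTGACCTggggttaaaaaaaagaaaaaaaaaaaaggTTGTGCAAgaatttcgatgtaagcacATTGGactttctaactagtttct
Fah: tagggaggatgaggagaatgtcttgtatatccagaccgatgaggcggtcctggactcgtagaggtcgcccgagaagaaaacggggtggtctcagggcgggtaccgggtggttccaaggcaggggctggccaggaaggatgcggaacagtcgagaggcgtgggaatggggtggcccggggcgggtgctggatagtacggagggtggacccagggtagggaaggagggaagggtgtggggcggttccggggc
The Hgd window holds 2 CCAAT, 1 TTGCNNAA and 1 AGGTCA, while the windows of Hpd and Fah hold none of the letters searched, so no such motif is common to the 3. Of all 32851 RefSeq windows of this length, 33.8% hold CCAAT, 9.56% TTGCNNAA and 14.0% AGGTCA. The other letters searched were CACGTG (an E-box), TTATGNAA (a D-box), TGATGNAA (an ATF4 and C/EBP composite) and AGAACA (part of the glucocorticoid receptor site), held by 6.02%, 3.07%, 3.45% and 16.1% of windows. None of these 4 is in the window of any of the 8 enzymes with an entry in the table (Sds has none). TTATGNAA and TTGCNNAA can match the same bases, which did not occur here.

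Tat, at chr8:109990437-109999803 (plus strand), is the transaminase at the head of tyrosine breakdown and a classical glucocorticoid-responsive gene, and was not called. It stood at 434.5 to 1778 CPM on control (median 861.7 CPM) and 452.4 to 2542 CPM on MCD (median 892.3 CPM), and the ranges overlapped almost wholly. Its log2 difference was 0.08 with a 95% interval from -0.22 to 0.37 (edgeR adjusted p = 0.706).

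The first enzymes of tryptophan and histidine breakdown were not called on average. Tdo2 lies at chr3:81957090-81976202 (minus strand) and Hal at chr10:93488768-93519304 (plus strand). Tdo2 ran from 597.7 to 1322 CPM on control (median 923.7 CPM) and from 562.2 to 1496 CPM on MCD (median 809.8 CPM), a log2 difference of -0.11 (95% interval -0.31 to 0.08, edgeR adjusted p = 0.350). Hal ran from 214 to 538.4 CPM (median 379.4 CPM) and from 186.5 to 547.6 CPM (median 357.8 CPM), a difference of -0.07 (-0.25 to 0.12, adjusted p = 0.586). In both cases the libraries of one diet covered nearly the whole range of the other, and with library totals the differences were 0.14 and 0.19, also not called. Of the other genes of these routes, 10 of 10 for tryptophan and 3 of 3 for histidine were called lower, or 7 of 10 and 3 of 3 with library totals. Among them Afmid (-1.51), Haao (-1.33) and Ido2 (-1.31) had, with Pipox of lysine breakdown (-1.62), the 4 largest decreases among the 66 other genes of amino acid catabolism tested.

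Sds, serine dehydratase, at chr5:120476526-120483932 (plus strand), was at 62.53 to 275.8 CPM on control (median 128 CPM) and 33.24 to 230.4 CPM on MCD (median 88.6 CPM). Of the MCD libraries 5 lay below the lowest control, and the rest overlapped. It fell by 0.56 (SE 0.16, edgeR adjusted p = 0.0066), with the widest interval of the 9 enzymes, -0.90 to -0.22. The exons of Sds share 360 bases with those of Plbd2 and 141 with Gm15690 on the opposite strand (GENCODE M21), and since the sources used here do not say whether counting used the strand, its counts may hold reads of Plbd2 (median 5963.5 counts in liver). With library totals the value was -0.29 (adjusted p = 0.154), and among libraries high in mt-Nd6 -0.43 (adjusted p = 0.314).

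The glycine cleavage pair had the smallest of the 6 called decreases. Amt lies at chr9:108296853-108302302 (plus strand) and Gldc at chr19:30098447-30175429 (minus strand). Amt, the aminomethyltransferase, was at 23.84 to 61.8 CPM on control (median 44.56 CPM) and 16.06 to 49.86 CPM on MCD (median 35.79 CPM). Amt fell by 0.33 (SE 0.05, edgeR adjusted p = 1.33e-05). Its log2 difference was below 0 at 6 of 6 times, but was only -0.005 at CT16. Gldc, the decarboxylase, was at 127.2 to 338.8 CPM (median 229.2 CPM) and 95.48 to 279.3 CPM (median 201.2 CPM). Gldc fell by 0.22 (SE 0.06, edgeR adjusted p = 0.00307) and was lower at 5 of 6 times. The diet groups overlapped over all times, with 8 controls above all MCD libraries for Amt and 3 for Gldc. Both calls were lost with library totals (Amt -0.07, Gldc 0.03), and Gldc was not called within the mt-Nd6 low (-0.24, adjusted p = 0.105) or high libraries (-0.21, adjusted p = 0.128) alone.

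Of 67 other genes of amino acid catabolism and the urea cycle, 66 were tested in liver. Of these 56 were called lower and 2 higher, with a median log2 difference of -0.46, and with library totals 40 lower and 9 higher with a median of -0.19. Genes called lower were 5 of 5 of lysine breakdown, 15 of 19 of the branched-chain routes, 9 of 10 of serine, glycine and threonine and 5 of 6 of the urea cycle, or 5, 12, 3 and 3 with library totals. Of phenylalanine and tyrosine breakdown 5 of 5 other genes were called lower, or 4 with library totals. Of the 8 genes of the proline, arginine, glutamine and alanine routes 4 were called lower and 1 higher, or 3 and 3 with library totals. Library totals also called 4 branched-chain genes higher. The 2 called higher with TMM scaling were Sdsl (0.36), a relative of Sds, and Gpt2 (0.19), an alanine transaminase. Without control CT08 a, 1 of the 66 was called higher, and 0 of the 8 genes of the list that holds Gpt2. The same counts came with the replicate number as a block, with the mt-Nd6 kind as a term, and within either kind alone. Each of the 9 enzymes lay between the lowest and the highest of these 66 values.

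**Figure D2:**
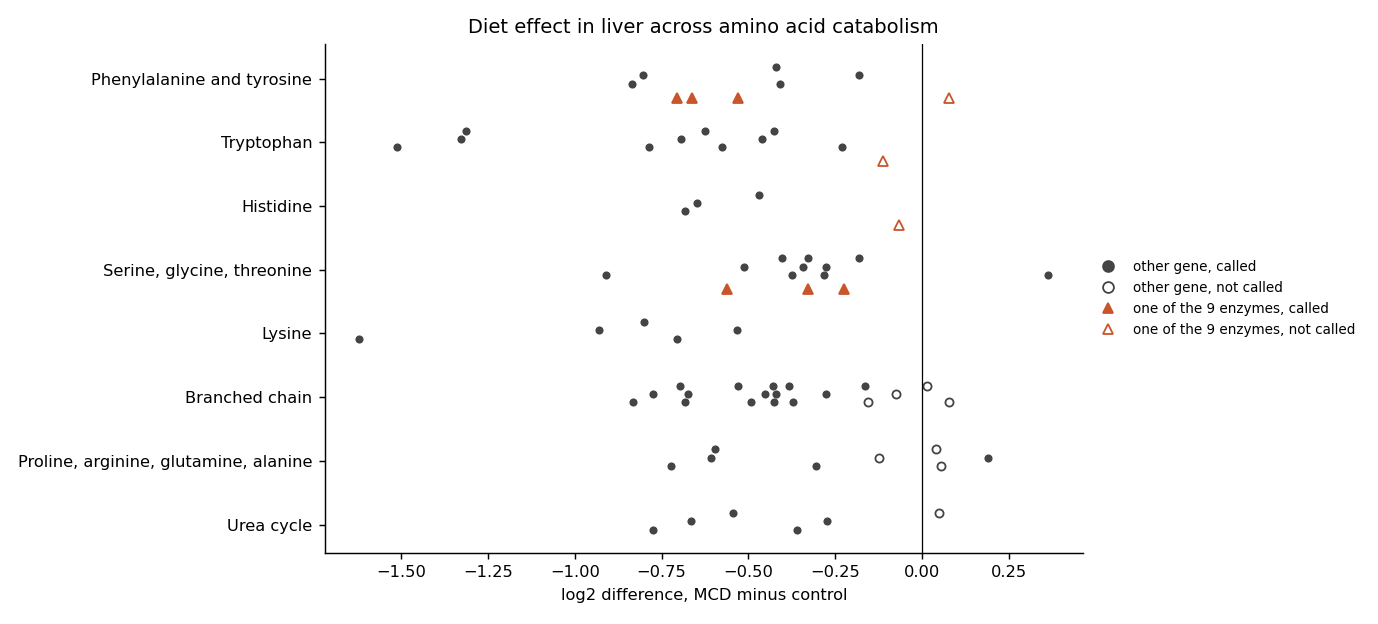
Log2 difference in liver, MCD minus control, of 66 other genes of amino acid catabolism (circles) and the 9 enzymes (triangles), by route (vertical offsets only separate the symbols); filled symbols are called. With TMM scaling as drawn, Tat, Tdo2 and Hal are the symbols closest to 0 in their own routes.

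Some cell type markers and regulators also differed between the diets, where 25.3% of all genes were called higher and 21.2% lower. Of 7 hepatocyte markers tested 5 were called lower (median -0.35) and none higher, all 8 macrophage markers were called higher (median 0.50), and 3 of 4 erythrocyte markers were called lower. The macrophage markers summed to 319 to 747 CPM in control libraries and to 436 to 997 CPM in MCD libraries. Of 5 endothelial markers 3 were called higher, of 7 stellate markers 1 higher and 1 lower, and of 5 cholangiocyte markers 1 higher. Of 8 periportal markers 2 were called higher and 3 lower, and of 8 pericentral ones 1 and 1. Of the 20249 genes tested, library totals called 10633 higher and 1540 lower. With library totals the calls were 2 higher and 3 lower for hepatocyte, 8 higher for macrophage, 3 lower for erythrocyte, 5 higher for endothelial, 6 higher for stellate, 1 higher for cholangiocyte, 3 higher and 1 lower for periportal, and 4 higher and 1 lower for pericentral markers. The part of these markers in the enzyme results was not tested, and in bulk liver fewer cells of a type and less RNA per cell cannot be told apart. Among 20 regulators and hormone-response genes 5 were called higher and 7 lower. With library totals 9 were higher and 2 lower.

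Over the single times, 16 differences of the 9 enzymes were called. With library totals 9 were, 8 of these 16 and 1 other at CT20. Fah and Hgd were called lower at every time but CT8, with Fah between -0.68 and -0.85 and Hgd between -0.49 and -0.64. At CT0 these 2 were called (12.6% of all genes, 6.02% lower), at CT4 also Hpd (-0.80), Gldc (-0.60) and Amt (-0.59; 18.2% of all genes, 8.71% lower), at CT12 also Hpd (-0.91) and Tdo2 (-0.68; 15.2%, 7.13% lower), at CT16 also Hal (0.71; 12.5%, 6.52% higher and 5.99% lower), and at CT20 only the 2 (11.3%, 5.6% lower). The Tdo2 call at CT12 (edgeR adjusted p = 0.0483) was lost on leaving out any of 21 of the 36 libraries, with no sex term (0.0742), with no count filter (0.0529) and with library totals (0.159). Hpd at CT4 was also not called with no sex term (0.054) or with library totals (0.106). Library totals also ended the calls of Hgd at CT4, CT12 and CT16 (edgeR adjusted p = 0.291, 0.472 and 0.069) and of Hpd at CT12 (0.0744). The same held for Gldc (0.21) and Amt (0.141) at CT4. Gldc and Amt at CT4 and Fah at CT4 and CT12 held in all 36 fits without 1 library. Each other single-time call was lost without at least 1 library of its own time. For Fah these were control CT00 1, MCD CT00 1 and MCD CT00 3 (highest edgeR adjusted p = 0.0592), MCD CT16 3 (0.0651), and control CT20 3, MCD CT20 1 and MCD CT20 3 (0.0965). For Hal at CT16 they were control CT16 1 and 2 and MCD CT16 1, 2 and 3 (highest adjusted p = 0.165).

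At CT8 none of the 9 was called by edgeR, 4 had an unadjusted p below 0.05, DESeq2 called 2 and limma-voom 0, and 1.3% of all genes were called. The control values at that time were 675, 1418 and 2081 CPM for Hpd, 359.9, 470.9 and 604.5 CPM for Hgd and 302.8, 553.2 and 609.6 CPM for Fah, and control CT08 a was the lowest of the 3 each time. Without it Fah was called at CT8 (-0.76, edgeR adjusted p = 0.00334), Hpd (-0.81, adjusted p = 0.0513) and Hgd (-0.46, adjusted p = 0.0924) were not, and 5.86% of all genes were. A test that the diet effect differed among the 6 times called none of the 9 by edgeR (0.909% of all genes). Hal was nearest, with an adjusted p of 0.0568, 2 of the 9 had an unadjusted p below 0.05, and DESeq2 and limma-voom each called 1, Hal. Without control CT08 a its adjusted p was 0.042 in edgeR, and leaving out control CT08 3, control CT20 3, MCD CT08 2 or MCD CT20 3 also made it a call.

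**Figure D3:**
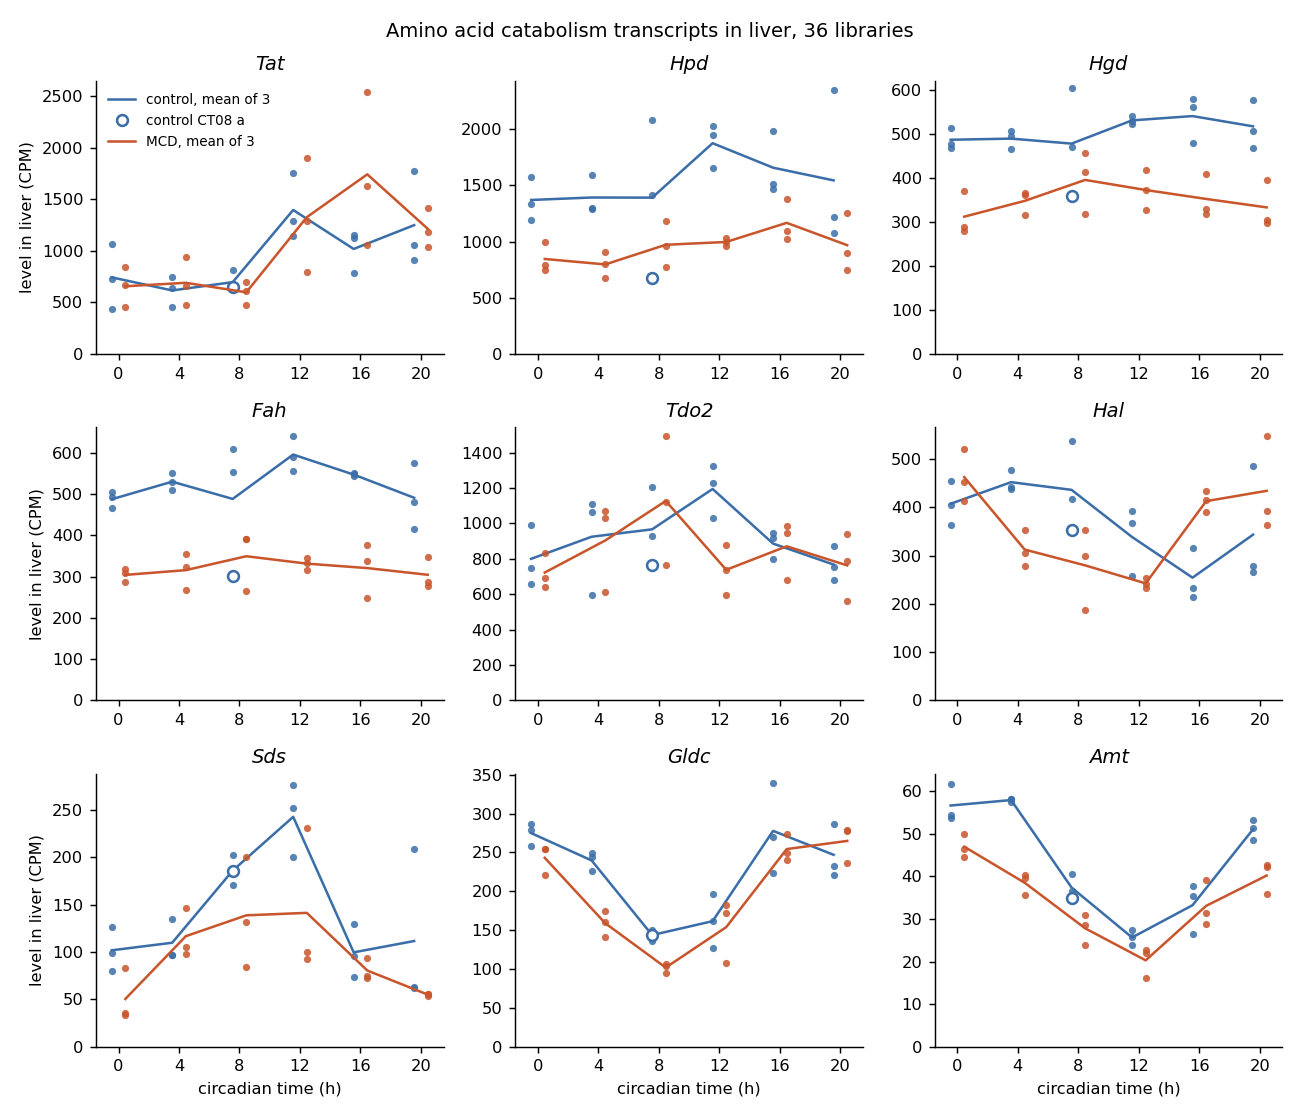
CPM in liver of the 9 enzymes by circadian time for control (blue) and MCD (orange), 1 point per library and lines through the means of 3; the open circle is control CT08 a. The diets stay apart at all times for Fah and Hgd but for the open circle, and the lines of Hal cross.

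**Figure D4:**
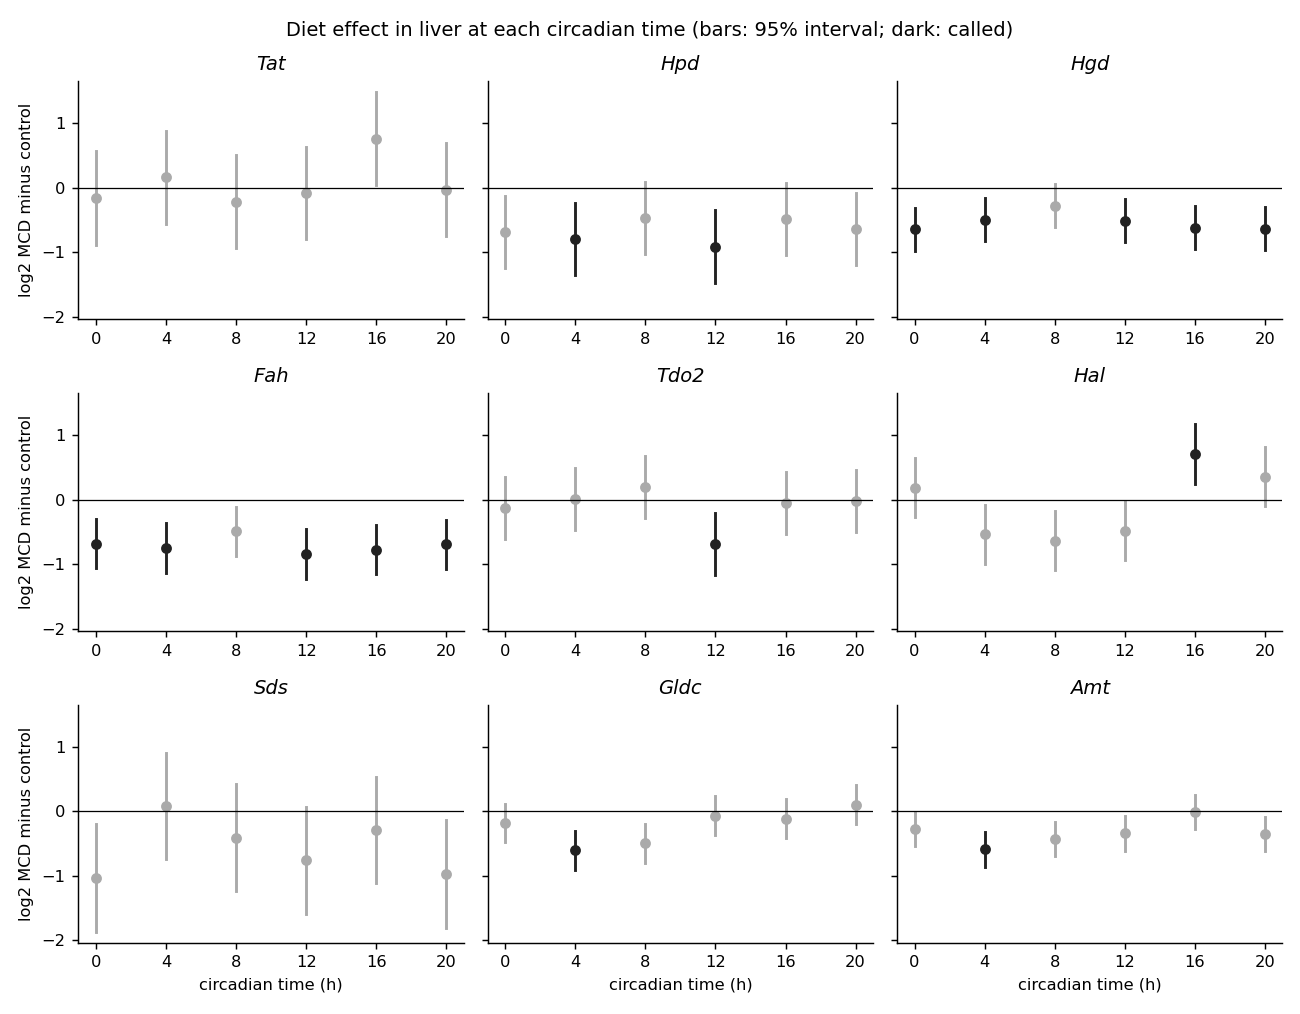
Log2 difference in liver, MCD minus control, at each circadian time with 95% intervals; dark where called. Fah and Hgd lie below 0 at all 6 times and are not called at CT8. Hal lies above 0 at CT0, CT16 and CT20 and below 0 at CT4, CT8 and CT12.

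A 24 h rhythm was called for Tat, Hal, Sds, Gldc and Amt on both diets and for Hpd, Hgd, Fah and Tdo2 on neither, that is 5 of 9 on control, where 17.8% of all genes were called, and 5 of 9 on MCD, where 28.2% were. With library totals the control count was also 5, but without Tat (edgeR adjusted p = 0.0832) and with Tdo2 (0.0242). The size of a rhythm is given as the log2 range from peak to trough of the fitted 24 h curve. The 3 tyrosine genes that fell thus had no called rhythm, with ranges of 0.41 for Hpd, 0.18 for Hgd and 0.21 for Fah on control.

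The glycine cleavage genes had the rhythms with the lowest p-values. Amt averaged 57.94 ± 0.39 CPM at CT4 and 25.67 ± 1.78 at CT12 on control, and 46.99 ± 2.64 at CT0 and 20.3 ± 3.69 at CT12 on MCD (SD, n = 3 each). The 3 libraries at CT12 lay below all those at CT0, CT4 and CT20 on either diet. The fitted range was 1.20 with a peak at CT0.7 on control (edgeR adjusted p = 7.23e-08) and 1.07 with a peak at CT23.4 on MCD (adjusted p = 2.81e-07). Gldc was lowest on average at CT8, where the control libraries had 136.2, 144.0 and 150.8 CPM and the MCD libraries 95.48, 103.9 and 106.2 CPM, against 258.5 to 287.1 CPM and 220.5 to 254.5 CPM at CT0. Its range was 0.91 on control and 1.36 on MCD (adjusted p = 2.49e-05 and 5.46e-08), and the difference in rhythm between diets was not called by edgeR (adjusted p = 0.066) and was by DESeq2 (0.0278), and by edgeR without control CT04 3, control CT16 3 or MCD CT12 1 (lowest adjusted p = 0.026).

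The windows before these 2 genes are shown since their transcripts were both low at CT8 and CT12. The transcripts parted at CT16 on control, where Gldc had its highest mean (277.7 CPM) and Amt (33.25 CPM) lay below its CT8 mean (37.39 CPM). The windows lie at chr19:30175442-30175691 (minus strand) for Gldc and chr9:108296655-108296904 (plus strand) for Amt, printed and marked as above, and the Amt window runs past the GENCODE start of the gene.
Gldc: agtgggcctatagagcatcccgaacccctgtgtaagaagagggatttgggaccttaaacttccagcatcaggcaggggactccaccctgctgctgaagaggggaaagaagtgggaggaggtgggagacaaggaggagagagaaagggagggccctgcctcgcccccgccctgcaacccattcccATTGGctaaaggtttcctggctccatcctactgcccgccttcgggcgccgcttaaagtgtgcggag
Amt: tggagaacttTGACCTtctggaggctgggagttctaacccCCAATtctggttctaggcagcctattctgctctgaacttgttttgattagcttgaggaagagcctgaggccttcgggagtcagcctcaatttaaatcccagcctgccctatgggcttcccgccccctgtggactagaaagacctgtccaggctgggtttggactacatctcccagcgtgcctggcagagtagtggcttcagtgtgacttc
Gldc has 1 CCAAT, and Amt has 1 CCAAT and 1 AGGTCA. Neither window holds the E-box or D-box letters, which says nothing of sites outside it.

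The serine enzyme Sds peaked late in the subjective day and Tat in the subjective night. Sds on control had 275.8, 200.1 and 251.9 CPM at CT12 against 95.42, 74.05 and 129.4 CPM at CT16, so that the 3 libraries at CT12 lay above all those at CT16. At CT20 Sds on control had 63.56, 62.53 and 208.7 CPM, so that these libraries overlapped those at CT12. On MCD it had 56.03, 55.37 and 53.75 CPM at CT20, a tight group, and 100.5, 230.4 and 93.0 CPM at CT12. The range was 1.19 on control (edgeR adjusted p = 0.0363) and 1.70 on MCD (adjusted p = 0.00152), with peaks at CT10.2 and CT9.3. Tat averaged 616 ± 146 CPM at CT4 and 1396 ± 320 CPM at CT12 on control, and 598 ± 112 CPM at CT8 and 1742 ± 749 CPM at CT16 on MCD, with ranges of 1.07 (adjusted p = 0.029) and 1.56 (adjusted p = 0.000858). Leaving out 1 library ended the control call of Tat for 5 of the 36 libraries (control CT04 1, CT04 3, CT12 2, CT16 2 and CT16 3; highest edgeR adjusted p = 0.0994) and that of Sds for 8 (control CT00 1 and 2, CT08 a and b, CT12 1 and 3, CT20 1 and 2; highest adjusted p = 0.0962). A test for any difference among the 6 times (11.3% of all genes on control) called 2 of the 9, Gldc and Amt, in edgeR on that diet, while DESeq2 called 5, limma-voom 2 and edgeR with library totals 3. With the replicate number as a block neither Tat nor Sds was called (edgeR adjusted p = 0.0518 for Tat and 0.183 for Sds).

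Hal was the only one of the 9 whose rhythm differed between the diets by edgeR, where 4.87% of all genes did. On control it was high at CT4 with 437.3, 477.3 and 442.2 CPM and low at CT16 with 214.0, 233.8 and 315.2 CPM. On MCD it was 278.9, 306.2 and 352.6 CPM at CT4 and 414.9, 433.8 and 389.9 CPM at CT16, so that the diets did not overlap at either time and stood in opposite order. The diet difference of Hal was called at CT16 (edgeR adjusted p = 0.0379) but not at CT4 (0.0958). The fitted peak was at CT4.3 on control (range 0.77, edgeR adjusted p = 0.0122) and at CT21.3 on MCD (range 0.92, adjusted p = 0.00154), and the difference of the 2 rhythms had an adjusted p of 0.0096. Without control CT08 a the latter was 0.00667, and the control rhythm of Hal was not called without control CT16 1 (adjusted p = 0.0506). Of the other histidine genes, Amdhd1, an imidazolonepropionase, also differed in rhythm (adjusted p = 0.0205), with fitted peaks at CT3.6 and CT0.2. The Hal window is shown for this difference, at chr10:93488518-93488767 (plus strand), printed and marked as above.
Hal: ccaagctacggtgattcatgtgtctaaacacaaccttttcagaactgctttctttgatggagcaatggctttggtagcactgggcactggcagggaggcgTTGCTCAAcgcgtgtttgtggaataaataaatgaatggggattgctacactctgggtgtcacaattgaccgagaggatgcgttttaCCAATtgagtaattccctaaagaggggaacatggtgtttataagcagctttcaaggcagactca
It holds 1 TTGCNNAA and 1 CCAAT.

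Sex was set beside diet, since each group held 2 males and 1 female. The additive term for sex called none of the 9 by edgeR (9.44% of all genes), with 2 at an unadjusted p below 0.05, 1 by DESeq2 (Tdo2, -0.28) and 0 by limma-voom. Tdo2 was called by edgeR without control CT08 a (-0.30, adjusted p = 0.0457), MCD CT04 1 or MCD CT04 3. The diet effect differed between the sexes for none of the 9 by edgeR (1.77% of all genes), with 4 at an unadjusted p below 0.05, 1 by DESeq2 and 0 by limma-voom. Hpd was nearest. The 6 control females averaged 1935 ± 299 CPM and the 12 control males 1341 ± 313 CPM, and on MCD the averages were 887 ± 118 and 993 ± 211 CPM (SD). Control females lay at 1579 to 2346 CPM, above all 18 MCD libraries, whereas control males at 675 to 1947 CPM overlapped MCD males at 678 to 1379 CPM. Leaving out control CT08 b, control CT12 3, MCD CT04 1 or MCD CT20 1 also brought Hpd past the threshold. The diet effect in females minus that in males was -0.70 (SE 0.20, edgeR adjusted p = 0.0658), and the p was 0.0302 without control CT08 a and 0.0132 in DESeq2.

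In the SCN, Amt was at 21.54 to 38.96 CPM on control (median 29.45 CPM) and 24.67 to 36.12 CPM on MCD (median 27.96 CPM), Fah at 10.78 to 31 CPM and 10.37 to 31.22 CPM, and Gldc at 5.82 to 19.02 CPM and 8.038 to 19.98 CPM. Sds reached at most 3.797 CPM, was at 0 in 2 control libraries, and there too shares exon bases with Plbd2 (median 2673.5 counts). No diet effect was called for these 4 by edgeR (0.0635% of all genes), DESeq2 or limma-voom, and 1, Sds, had an unadjusted p below 0.05. The log2 differences were 0.00 for Fah (95% interval -0.12 to 0.12), 0.05 for Gldc (-0.09 to 0.18), -0.08 for Amt (-0.19 to 0.02) and 0.85 for Sds (0.17 to 1.54, adjusted p = 0.818).

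Fah and Gldc were rhythmic in the SCN on both diets, that is 2 of 4, where 15.1% of all genes were called on control and 16.1% on MCD. Fah was at 31.0, 27.71 and 28.52 CPM at CT20 and at 11.65, 10.78 and 12.74 CPM at CT12 on control, with no overlap, and at 25.3, 31.22 and 22.42 CPM and 13.66, 14.51 and 15.13 CPM on MCD. The range was 1.27 (edgeR adjusted p = 6.07e-09) and 1.36 (adjusted p = 1.76e-09), against 0.21 and 0.19 in liver, where neither was called. Gldc was high at CT4 in the SCN with 17.85, 15.52 and 19.02 CPM and low at CT0 with 8.586, 5.82 and 9.674 CPM on control, while in liver CT0 was among its high times and CT8 its lowest. The difference in SCN rhythm between diets was called for none of the 4 by edgeR (0.0127% of all genes), DESeq2 or limma-voom, with 2 (Fah and Gldc) at an unadjusted p below 0.05. The fitted SCN peaks of Gldc were at CT8.0 and CT5.6, and its liver peaks at CT21.4 and CT20.0. Amt, with a range of 1.20 in liver, had 0.07 in the SCN on control (adjusted p = 0.882) and 0.10 on MCD (adjusted p = 0.770).

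The difference between tissues was tested in 1 model of 72 libraries over the 14491 genes in both tables. The diet effect was lower in liver than in SCN for Fah (-0.71, edgeR adjusted p = 5.01e-08), Sds (-1.36, adjusted p = 0.000243), Gldc (-0.28, adjusted p = 0.0107) and Amt (-0.25, adjusted p = 0.00624), 4 of 4 where 34.7% of all genes were called and 15.8% were called lower. With library totals only Fah and Sds were called, and Sds was not in limma-voom (adjusted p = 0.129). A test of the difference in 24 h rhythm between tissues, added after the values were seen, called Fah, Gldc and Amt on control (16.9% of all genes) and all 4 on MCD (28.3%). The labels do not say which liver and SCN libraries came from one mouse, and they were treated as independent.

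**Figure D5:**
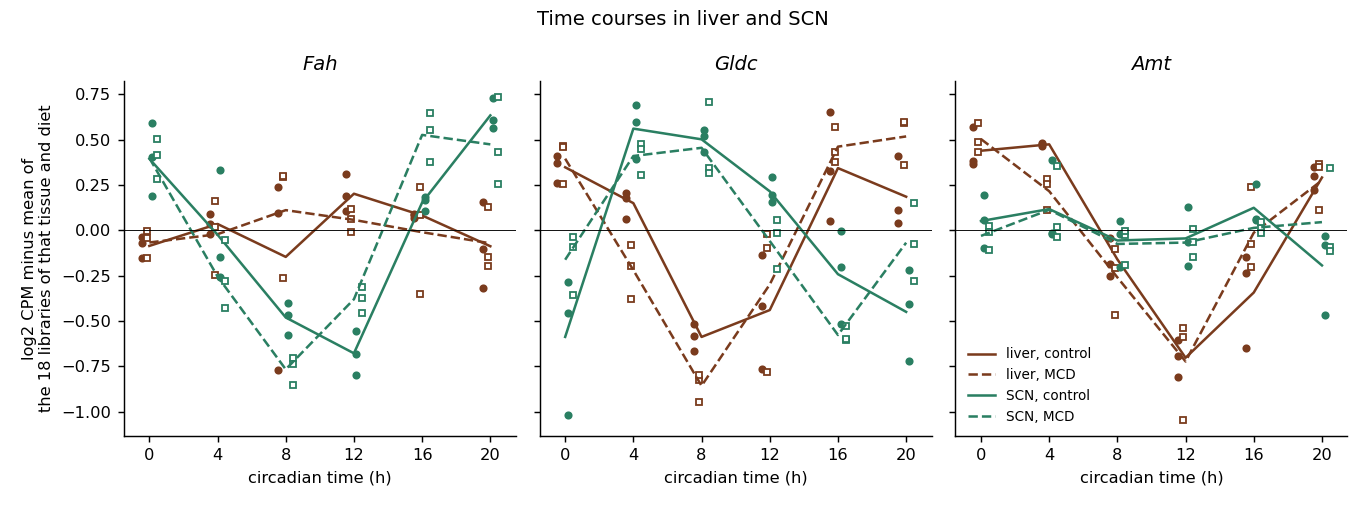
Log2 CPM of Fah, Gldc and Amt by circadian time, set to 0 at the mean of the 18 libraries of a tissue and diet, for liver (brown) and SCN (green), control (filled, solid) and MCD (open, dashed). Gldc is high at CT4 and CT8 in SCN and low at CT8 in liver, Fah moves with time chiefly in SCN and Amt in liver.

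The liver genes whose log2 CPM followed each enzyme most closely over the 36 libraries were found by Pearson r, as a description, since the libraries share diets, times and scaling. Fah was closest to Echs1 (0.982), an enoyl-CoA hydratase, and Proz (0.955), Hgd to Tmem242 (0.931) and Echs1 (0.923), and Hpd to Cd302 (0.942) and F7 (0.934). Gldc was closest to Arntl (0.918), the clock activator BMAL1, and Lgalsl (0.909), and Amt to Cbs (0.919), cystathionine beta-synthase, and Slc39a8 (0.903). For Sds the closest were Pros1 (0.853) and Upp2 (0.814), for Tdo2 Rxra (0.816) and Fbxo31 (0.758), for Hal Dcaf11 (0.793) and Nudt16 (0.785), and for Tat Klf3 (0.752) and Rab11fip2 (0.750). The highest r was that of Fah and the lowest that of Tat.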

How the data were processed

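Liver and SCN transcripts were read from 2 tables of gene counts, 36 libraries each, that the authors deposited as raw counts, and the submitters' processing notes name Trimmomatic, HISAT2, StringTie, DESeq2 and GRCm39, without roles; use of strand in counting is not given in the sources used here. Columns were matched to samples by name; 2 control CT8 columns per table carry the same name and no number. The 9 enzymes, the other lists and the tests were chosen with earlier results of these data known. Genes passing filterByExpr (minimum count 10) were fitted in edgeR 4.0.16 (R 4.3.3) with TMM scaling, a robust quasi-likelihood test and Benjamini-Hochberg adjustment over 20249 liver or 15759 SCN genes; terms were diet, circadian time (24 h Fourier terms for rhythm) and sex. A model of 72 libraries compared tissues over 14491 genes. Named genes were the 9 enzymes, the 4 pathway genes with the largest called decreases and those called higher. The 2 genes most like each enzyme, with the 9 enzymes left out, were also named. Amdhd1 was named after its values were seen. Alternatives were DESeq2 1.42.0, limma-voom (limma 3.58.1), library totals, RLE, no count filter, no sex term, a replicate block, the kind of library, and each library left out. Deviations of libraries with the same number correlated at r from 0.07 to 0.43 in liver (13 of 16 over 0.1), so in part they deviated together. In the SCN r ran from -0.086 to 0.28 (8 of 16 over 0.1). Sex was not removed from these deviations, and the female of each group always bears the same number. Numbers were not used as pairs in the main fits, and the replicate block is among the alternatives. The code was tested on simulated data. Replicates differed by more than sampling noise (lowest chi-square per degree of freedom 29.3 in liver and 24.1 in SCN).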

Additional observations from a re-analysis of the deposited data

Results flagged for a closer look

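Effects that differed between groups by a test of the difference itself are given with edgeR adjusted p-values. The 24 h rhythm of liver Hal differed between the diets (adjusted p = 0.0096). The diet effect differed between liver and SCN for Fah (adjusted p = 5.01e-08), Sds (0.000243), Amt (0.00624) and Gldc (0.0107), where 34.7% of all genes were called. With library totals Amt (0.332) and Gldc (0.289) were not called. The 24 h rhythm differed between the tissues on control for Fah (adjusted p = 9.14e-07), Amt (2.29e-07) and Gldc (8.41e-12), and on MCD for Fah (1.12e-07), Sds (0.00613), Amt (1.12e-05) and Gldc (1.19e-12). That rhythm test was added after the values were seen, and called 16.9% of all genes on control and 28.3% on MCD. The Sds values rest on at most 3.797 CPM in the SCN, and limma-voom called neither the diet difference (adjusted p = 0.129) nor the rhythm difference on MCD (0.457).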

How the results depend on the processing

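The 6 liver diet calls over all times held in each of the 36 fits without 1 library and under each alternative run but library totals, which left 3, and the low and high kinds of library alone, which left 5 and 4. With library totals Tdo2 (0.14), Hal (0.19) and Gldc (0.032) turned positive, 9 single-time differences were called (8 of the 16 and 1 other), liver minus SCN diet effects were called for 2, control rhythm lost Tat and gained Tdo2, and all-gene calls were 10633 higher and 1540 lower against 5130 and 4296. Tat turned to -0.07 in the low kind. The diet by time test called 1 enzyme with DESeq2, limma-voom or library totals, and 0 to 1 without 1 library. The control rhythm calls were 3 with the replicate block and 2 in the any-time test; the block moved no other count of enzymes called past 1.5 times. DESeq2 called 2 rhythm differences (1 to 2 without 1 library), 1 sex difference (0 to 1) and 1 sex by diet difference (0 to 1; library totals 2). Uncalled sex values of Hgd turned to 0.046 (library totals), 0 (no filter) and 0.003 (kind of library), and of Fah to 0.01 (library totals). SCN Fah diet values turned to -0.002 (DESeq2), -0.014 (limma-voom), -0.004 (library totals) and -0.001 (RLE). Without 1 library, uncalled values crossed 0 for SCN Fah diet (-0.025 to 0.038), sex by diet of Amt (-0.044 to 0.055) and Tdo2 (-0.093 to 0.144), and sex of Amt (-0.003 to 0.043), Hgd (-0.053 to 0.029) and Tat (-0.004 to 0.149). All-gene counts moved past 1.5 times for the diet effect (4583 low kind, 5096 high kind, 9426 all), diet by time (DESeq2 1340, no sex term 103, block 115, against 184), control rhythm (any-time 2284 against 3611), MCD rhythm (3746 against 5704), rhythm difference (DESeq2 2017, block 651, against 986), sex by diet (DESeq2 733 against 359), SCN diet (DESeq2 47, limma-voom 21, no sex term 6, block 4, against 10) and SCN control rhythm (block 1248 against 2378). The causes were not tested. In the SCN Sds reached at most 3.797 CPM, which limits its precision.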

Other observations

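Of the 66 other genes of amino acid catabolism tested in liver, 2 differed in 24 h rhythm between the diets by edgeR, where 4.87% of all genes did. One was Amdhd1, described with Hal. The other was Gpt2, an alanine transaminase, with a range of 1.13 on control and 0.26 on MCD (adjusted p = 0.0278). In the SCN 0 of the 48 listed genes of these routes were called for diet by edgeR, 5 had an unadjusted p below 0.05, and DESeq2 and limma-voom called 1 each.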
